A study of Zea mays with 2 samples.

Results

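The regions described here are the 261 listed regions that lay less than 20 kb from another listed region, out of 3120 on maize chromosomes 1 to 10 and 3126 in the deposited table. They were chosen by position alone. The gap between neighbours is the start of the next region minus the end of the previous one, and a region counted as clustered if its smaller gap was under 20000 bp. The other 2859 regions on these chromosomes served for comparison, and their smaller gap was 234 kb at the median. The series title names meiotic double-strand break hotspots, but the table does not state how its regions were called. The material was flowers of the maize inbred line B73, and the labels give no treatment and no other genotype. There was 1 MNase library, from which fragments of about 150 bp were recovered after 10 min of micrococcal nuclease at 0.02 U/µl, and 1 input library of chromatin sonicated to 200 to 500 bp. With neither replicated, no test between the libraries was possible.

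Meiotic recombination starts with double-strand breaks made by the SPO11 complex, and in many species these breaks gather in narrow hotspots. In budding yeast, hotspots lie mainly in stretches depleted of nucleosomes, and a break there lowers the frequency of further breaks nearby through the kinase Tel1. MNase-Seq reports on nucleosomes, since micrococcal nuclease digests linker DNA and spares DNA wrapped around histones. Regions that lie close together allow neighbouring stretches of chromatin to be compared with each other as well as with isolated regions.

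For each region the authors' deposited table gives a ratio of counts. Its terms are unnamed, so neither a high nor a low ratio says whether more nucleosomes were present. Its scaling is not stated either, so a ratio of 1 serves below only as a dividing line, not as a known even point. The counts behind a ratio stand in columns that could not be tied to a library, so no interval is given for a single ratio. Ratios were coarse, with 194 distinct values among the 261 clustered regions.

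Clusters were small. The 261 regions formed 127 clusters, of which 120 were pairs and 7 held 3 regions, and none held more. Clustered regions made up 8.37% of the regions on the numbered chromosomes and 8.78% of their summed length, 334 kb in all. A cluster spanned 11505 bp at the median, from 2334 to 32774 bp, and listed regions filled a median of 21.5% of that span. Inside clusters there were 134 gaps with a median of 9.06 kb. Of these, 31 were under 5 kb, 46 were 5 to 10 kb, 25 were 10 to 15 kb and 32 were 15 to 20 kb.

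The closest pair lay on chromosome 5, where regions from 127735115 to 127736073 and from 127736220 to 127737448 were 146 bp apart. Their ratios in the authors' deposited table were 0.504 and 0.423, both under the lower quartile of the other regions. On chromosome 10 a region of 2727 bp from 138064179 to 138066905 was followed after 295 bp by a region of 868 bp, from 138067201 to 138068068. Here the ratios were 1.16 and 2.12, the widest difference among the 5 closest pairs, with no interval for either ratio. A gap of 335 bp on chromosome 4 separated a region from 131515561 to 131516595, with a ratio of 0.441, from a region running from 131516931 to 131519484, with 0.780.

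The remaining close pairs named here had ratios nearer to each other than the pairs on chromosomes 10 and 4 did. On chromosome 5, regions from 146381906 to 146383795 and from 146384409 to 146385242 were 613 bp apart and had ratios of 0.625 and 0.647. On chromosome 2, regions from 210032532 to 210033359 and from 210034431 to 210035377 were 1071 bp apart and had 0.793 and 0.678.

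The limit of 20 kb cut between neighbouring gap sizes. Just inside were a gap of 19285 bp on chromosome 4, between ratios of 1.34 and 0.696, and a gap of 19903 bp on chromosome 1, between 2.09 and 1.15. Just outside were a gap of 20422 bp on chromosome 5, between ratios of 0.908 and 0.598, and a gap of 20479 bp on chromosome 3, between 1.53 and 0.935.

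The 7 clusters of 3 regions lay on chromosomes 1, 3, 5, 7 and 8. On chromosome 1, the cluster from 240622647 to 240654166 spanned 31.5 kb and had ratios of 1.34, 2.09 and 1.15, all above 1. Its middle region was the shortest of the 3, at 1131 bp. The other cluster of 3 on chromosome 1 ran from 300071638 to 300095765 and ended with the last listed region of that chromosome. Its ratios were 1.39, 0.882 and 1.18.

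In the cluster on chromosome 3 from 92897714 to 92928833 the ratios were 0.827, 1.35 and 1.30. Chromosome 5 carried a cluster from 23812899 to 23829129, with ratios of 1.18, 0.860 and 0.937, and another from 116906806 to 116934685, with 0.551, 0.273 and 1.04. The latter held the lowest ratio in any cluster of 3, flanked by higher values on both sides. On chromosome 7 the cluster from 131817166 to 131849939, the widest of all 127 at 32.8 kb, had ratios of 0.823, 0.882 and 0.475, all below 1. The cluster on chromosome 8 from 112165984 to 112181872 had ratios of 0.551, 1.12 and 1.21. In 5 of the 7 clusters regions fell on both sides of 1. Of all regions on the numbered chromosomes 35.6% had a ratio above 1, and the count of mixed clusters was not tested.

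**Figure D1:**
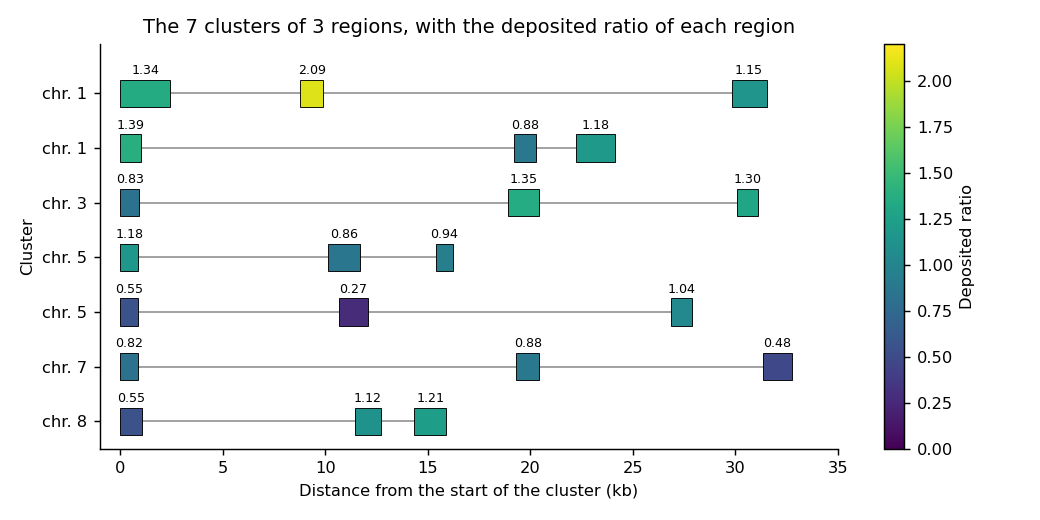
The 7 clusters of 3 regions, drawn to scale by distance from the start of each cluster (kb) and ordered by chromosome and position. Boxes are regions, coloured by and labelled with the deposited ratio; ratios run from 0.273 to 2.09, and boxes of 1 cluster often differ in colour.

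Clusters were scattered over all 10 chromosomes. The share of a chromosome's regions that were clustered ran from 6.70% on chromosome 1 (28 of 418) to 11.5% on chromosome 9 (28 of 243). Chromosome 4 carried the most clusters, 20, and chromosome 8 the fewest, 8. Relative to the last listed position, cluster density was lowest on chromosome 1, at 4.33 per 100 Mb, and highest on chromosome 9, at 9.02. These densities were not tested against each other.

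Consecutive clusters of a chromosome were 10.6 Mb apart at the median, and 6 of 117 such distances were under 1 Mb. Of 210 windows of 10 Mb with listed regions, 117 held no cluster start, 63 held 1, 27 held 2 and 3 held more. The fullest window, from 10 to 20 Mb on chromosome 4, held 4 pairs, starting at 10032355, 10863675, 14036086 and 15267582. In the authors' deposited table the ratios of these pairs were 0.840 and 0.947, 0.976 and 1.64, 0 and 0.882, and 0.936 and 1.90, each given from lower to higher. The longest stretch without a cluster covered 99.4 Mb of chromosome 1, between 8554048 and 107904863. It held 119 listed regions, none within 20 kb of another. Stretches of 69.4 Mb on chromosome 6, between 83133064 and 152559938, and of 60.1 Mb on chromosome 3, between 142013343 and 202110966, held 86 and 79 regions and no cluster.

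**Figure D2:**
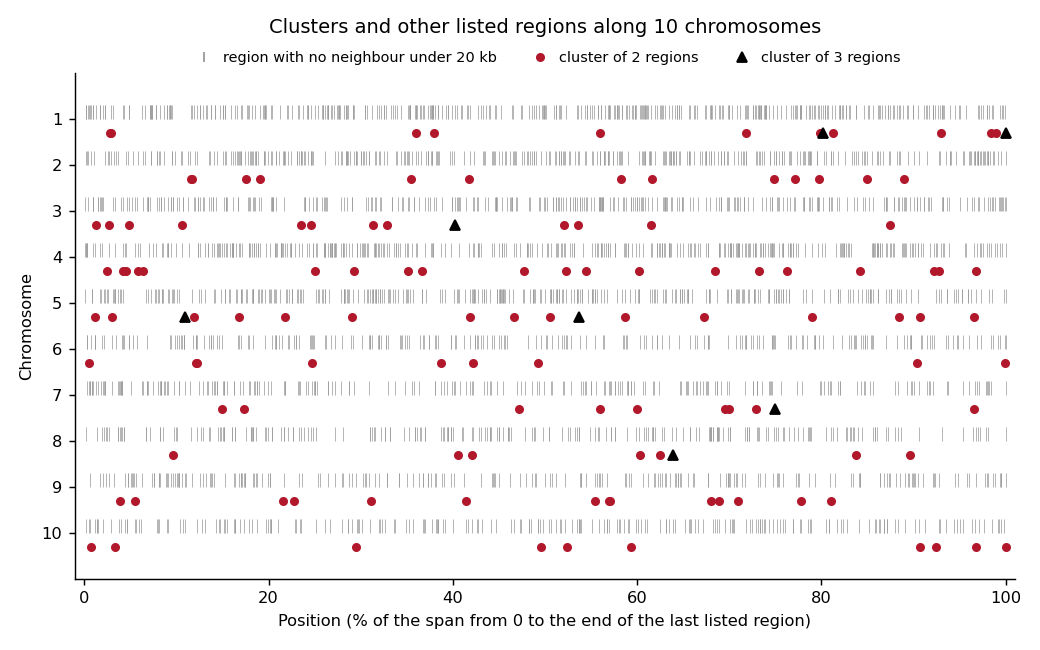
Position of clusters along each chromosome, as a percentage of the span from position 0 to the end of the last listed region. Grey ticks are regions with no neighbour under 20 kb, red points clusters of 2 and black triangles clusters of 3 regions; the stretch of 99.4 Mb without a cluster on chromosome 1 has grey ticks over most of its length.

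No difference in the surroundings of clusters was detected. Around each region the other listed regions with a midpoint up to 1 Mb away were counted, leaving out the region's own cluster. Other regions had 2.98 ± 0.216 such regions (mean of chromosome means, SD, n = 10 chromosomes), and clustered regions had 0.0122 ± 0.631 more. The difference was positive on 5 and negative on 5 chromosomes. An exact two-sided permutation test that flips the signs of chromosome differences gave p = 0.961 (adjusted p = 0.961 over 6 tests). The nearest listed region outside a cluster lay 251 kb away at the median, from 20.8 to 2159 kb, and for 10 of the 127 clusters it was closer than 50 kb. The limit of 20 kb sets the lower end of these distances. For other regions the smaller gap was 234 kb at the median, and 240 of the 2859 had one under 50 kb. The count of regions within 1 Mb was added after the positions had been seen.

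No preference of clusters for chromosome ends passed the test. Regions were called distal if their midpoint lay within the outer 20% of the chromosome at either end. Here and below, the ends were position 0 and the end of the last listed region, not the known ends of the chromosome. Averaged over chromosomes, 44.1% ± 13.7 (SD, n = 10 chromosomes) of clustered and 39.1% ± 4.24 of other regions were distal, a difference of 4.92 ± 16.5 percentage points. The distal share was higher among clustered regions on 6 of 10 chromosomes (exact permutation p = 0.359 by sign flipping, adjusted p = 0.539). The difference was 0.395 points at a gap limit of 10 kb, 6.98 for the outer 10% and 0.779 for the outer 30% of the chromosome. Chromosomes went opposite ways. On chromosome 1 the distal share was 64.3% of clustered and 37.4% of other regions, and on chromosome 9 it was 21.4% and 46.5%.

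In steps of 10% from the ends to the middle, the share of each step's regions that were clustered was 11.4%, 7.49%, 7.04%, 6.99% and 9.06%. In the outermost 20 Mb at either end lay 67 of the 261 clustered regions (25.7%, exact binomial interval 20.5 to 31.4%) and 523 of the 2859 others (18.3%). This interval lies above the 18.9% of all regions, but it takes regions as independent, which members of 1 cluster are not. As a mean over chromosomes that difference was 6.27 ± 19.8 percentage points (SD, n = 10 chromosomes). It too missed the threshold in the exact permutation test (p = 0.334), and the distance of 20 Mb was chosen after the shares had been seen.

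Lengths of clustered regions overlapped widely with those of others. Clustered regions measured 806 to 3145 bp, with quartiles of 923, 1135 and 1517 bp, and other regions had quartiles of 910, 1100 and 1460 bp. Chromosome medians averaged 1160 ± 100.3 bp (SD, n = 10 chromosomes) for clustered and 1099 ± 19.9 bp for other regions. Clustered medians were higher on 9 of 10 chromosomes, by 61.5 ± 97.7 bp on average, which missed the threshold (exact permutation p = 0.0742 by sign flipping, adjusted p = 0.281). Chromosome 2 was the exception, with 952 bp for clustered and 1094 bp for other regions. Without it the mean difference was 84.2 bp, but all remaining differences then have 1 sign and the test can only return its smallest p, so nothing is read from that p. Leaving out any other chromosome gave exact permutation p-values of 0.0820 to 0.148, unadjusted. With a gap limit of 10 kb the difference was 39.95 bp, positive on 5 and negative on 5 chromosomes, and it was 35.55 bp at 50 kb and 30.65 bp without the shortest and longest 10% of regions.

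Regions longer than 1500 bp made up 68 of the clustered regions (26.1%) and 619 of the others (21.7%). The longest clustered region, 3145 bp on chromosome 6 from 20507470 to 20510614, had a ratio of 0.823. It lay 15.8 kb from a region of 1367 bp with a ratio of 0.432. Next in length were the 2727 bp region of the close pair on chromosome 10 and a region of 2618 bp on the same chromosome, from 74032339 to 74034956, with a ratio of 1.85 beside a neighbour at 0.651.

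The deposited ratio had quartiles of 0.617, 0.860 and 1.19 in clustered regions and 0.588, 0.838 and 1.16 in the others. Per chromosome, the clustered median averaged 0.881 ± 0.0720 (SD, n = 10 chromosomes) and the other median 0.831 ± 0.0367. The difference of 0.0501 ± 0.0833 was positive on 7 chromosomes, negative on 2 and 0 on chromosome 8, and missed the threshold (exact permutation p = 0.0938 by sign flipping, adjusted p = 0.281). It was widest on chromosome 1, with medians of 1.02 for clustered and 0.800 for other regions, and on chromosome 10, with 0.973 and 0.831. On chromosome 2 the medians were 0.793 and 0.860, and on chromosome 9 they were 0.810 and 0.842.

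The difference in ratio depended on how it was computed. With chromosome means in place of medians it was 0.00784 (exact permutation p = 0.848), positive on 5 and negative on 5 chromosomes. It was 0.0319 at a gap limit of 10 kb, also with 5 chromosomes on each side, and 0.0167 at 50 kb. Among regions at or under the median length it was -0.000676 (exact permutation p = 0.982), and above that length 0.0405. It was 0.0508 without regions at ratio 0 and 0.0550 without the shortest and longest 10% of regions. Of 18 alternatives, 1 reversed the direction. Leaving out each chromosome in turn gave 0.0316 to 0.0630, with unadjusted exact permutation p-values of 0.0391 without chromosome 2, 0.0469 without chromosome 9 and 0.0938 to 0.188 without any other. Chromosomes 2 and 9 are those with a negative difference, so the lower p-values without them are no support for a difference.

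**Figure D3:**
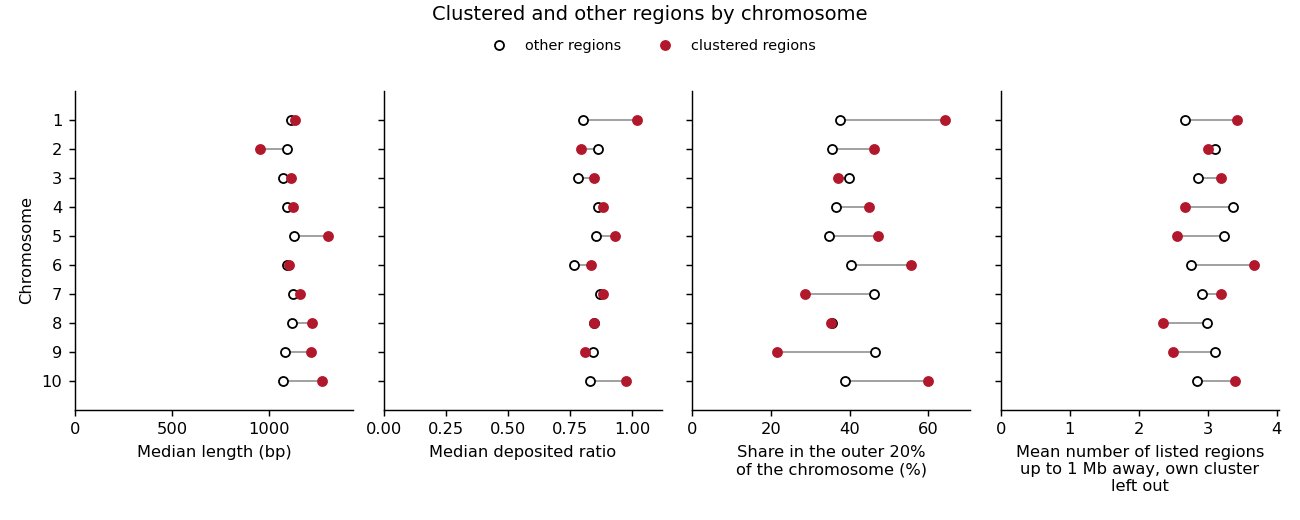
Values of clustered (red) and other regions (open points) on each chromosome: median length (bp), median deposited ratio, share in the outer 20% of the chromosome (%) and mean number of listed regions up to 1 Mb away outside the own cluster; each axis starts at 0. Median length is higher in clustered regions on 9 of 10 chromosomes, and the other values go either way.

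Ratios of clustered regions covered a narrower range than those of the much larger set of other regions, whose highest was 5.47. A ratio above 2 was found in 6 clustered regions, 2.30% (exact binomial interval 0.848 to 4.94%, over regions), against 3.94% of all regions on the numbered chromosomes. Ratios above 0 and below 0.5 were found in 25, or 9.58% (6.30 to 13.8%), against 12.9% of all. Both intervals include the share of the whole set. Above 1 were 99 clustered regions (37.9%) and 1011 others (35.4%).

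The highest ratio of a clustered region, 2.61, belonged to chromosome 7 from 128229875 to 128231036. Its neighbour 9.01 kb away, from 128219732 to 128220866, was listed at 0, so 1 pair joined the highest and the lowest value found in clusters. A region on chromosome 1 from 114048015 to 114048825 had a ratio of 2.42, beside a neighbour at 0.680 at a distance of 12.6 kb. On chromosome 3, a ratio of 2.30 from 11195290 to 11196549 stood beside 0.776 at a distance of 17.4 kb. Next came the 868 bp region of the close pair on chromosome 10 (2.12) and the middle region of the first cluster of 3 on chromosome 1 (2.09). Of the 5 highest ratios, 3 stood beside a neighbour below 1. Over all regions on the numbered chromosomes only 35.6% had a ratio above 1, so nothing is read from this count.

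A ratio of 0 was listed for 12 clustered regions (4.60%), against 4.23% of all regions on the numbered chromosomes. They lay on chromosomes 2, 4, 7, 8, 9 and 10. In 2 pairs both regions were listed at 0. One was on chromosome 8, from 105894197 to 105895716 and from 105902201 to 105903061, and the other on chromosome 9, from 105573456 to 105574838 and from 105576485 to 105577575. The remaining 8 each had a neighbour above 0, and the ratios of these neighbours ran from 0.465 on chromosome 2 to 2.61 on chromosome 7. Pairs with both regions at 0 made up 1.49% of 134 close pairs and 0.269% (8) of 2976 adjacent pairs farther apart, a difference that rests on 2 close pairs and was not tested.

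Medians of the ratio did not run in order with the gap. Its median was 0.882 in 62 regions with a smaller gap under 5 kb, 0.831 in 91 at 5 to 10 kb and 0.892 in 108 at 10 to 20 kb. Beyond the limit it was 0.818 in 240 regions at 20 to 50 kb, 0.838 in 413 at 50 to 100 kb and 0.882 in 604 at 100 to 200 kb. Median lengths in the 3 classes inside clusters were 1198, 1131 and 1218 bp, against 1098 bp at 20 to 50 kb. Quartiles overlapped between all of these classes in both measures.

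**Figure D4:**
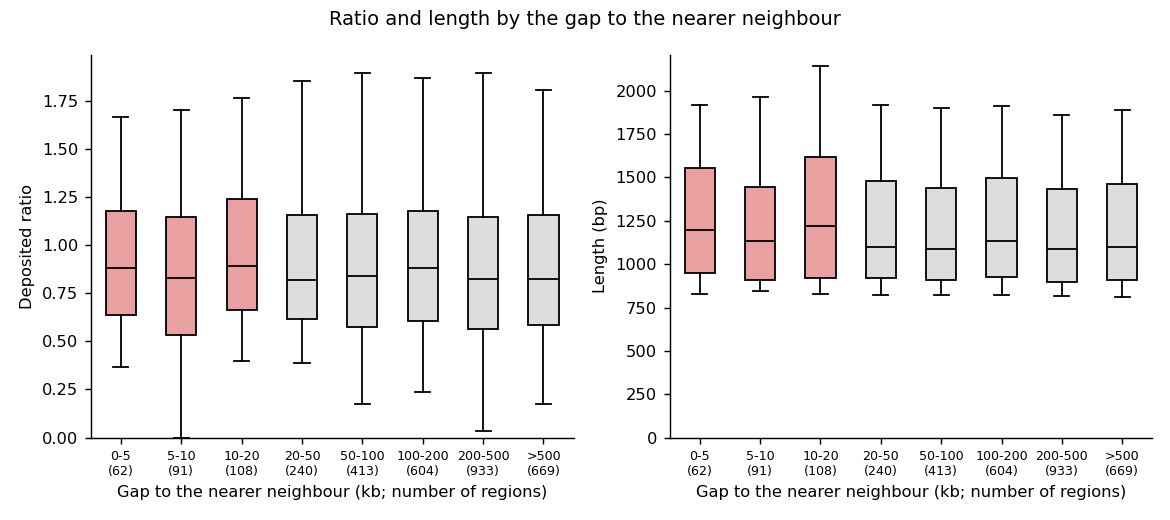
Deposited ratio and length (bp) by the gap to the nearer neighbour, with the number of regions in each class. Boxes show quartiles, whiskers the 5th and 95th percentiles, and red boxes are clustered regions; medians of the ratio lie between 0.818 and 0.892 in all classes.

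Neighbours in a cluster were then compared with each other. Each value was turned into its percentile rank among the 3120 regions, so that a rank difference near 0 means that both regions of a pair have like values. For the ratio the rank difference in close pairs averaged 26.7 ± 7.51 percentage points (mean of chromosome medians, SD, n = 10 chromosomes), against 28.5 ± 1.27 in adjacent regions 20 kb or more apart. It was smaller in close pairs on 6 of 10 chromosomes (exact permutation p = 0.537 by sign flipping, adjusted p = 0.645). For length it was 34.1 ± 10.6 in close pairs and 29.9 ± 2.29 in the others, smaller on 3 chromosomes (exact permutation p = 0.227, adjusted p = 0.453). A greater likeness of close neighbours was therefore not detected in either measure.

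Counts of pairs are given as a description. Both regions had a ratio above 1 in 18 of 134 close pairs (13.4%) and in 395 of 2976 pairs farther apart (13.3%), and exactly 1 region did in 66 (49.3%) and 1324 (44.5%). At the level of clusters, 15 of the 127 had all ratios above 1, 47 had none above 1 and 65 were mixed. Ratios of close neighbours lay within 1.5-fold of each other in 53 of the 124 pairs with both ratios above 0 (42.7%), against 1234 of 2734 (45.1%) farther apart, and differed by more than 3-fold in 12 (9.68%), against 363 (13.3%). The longer region of a close pair had the higher ratio in 62 of the 131 pairs with unequal ratios (47.3%), against 1508 of 2953 (51.1%) farther apart with unequal lengths and ratios.

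Spearman's rho between neighbours was near 0 over all 134 close pairs, at 0.09 for the ratio and 0.01 for length, and over the 2976 pairs farther apart, at 0.03 and -0.01. Split by gap, rho between ratios was 0.23 over 77 pairs under 10 kb and -0.12 over 57 pairs at 10 to 20 kb. Between lengths it was -0.14 and 0.27. These values are across pairs of regions that share both libraries, and they were not tested.

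**Figure D5:**
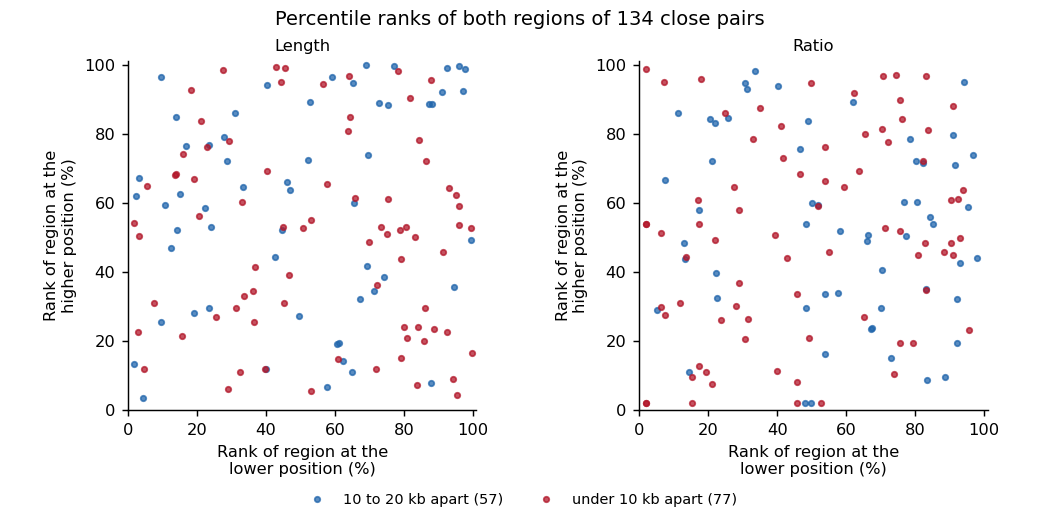
Percentile ranks, among 3120 regions, of both regions of the 134 close pairs for length and deposited ratio; red points are 77 pairs under 10 kb apart and blue points 57 pairs at 10 to 20 kb. Points fill both panels without gathering along the diagonal.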

How the data were processed

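The data were 1 deposited table without a header, with 3126 regions. Lengths and a linear ratio of counts, with 1 value per region, were deposited by the authors and used as they stand. The table's 2 columns of whole numbers carry no name that ties them to a library. Counts per kb, and a ratio formed again from these counts, were computed at first and then dropped for that reason; they are not reported, nor is the depth per region. How the ratio was scaled could shift all its values alike. CASAVA 1.8 and BWA are named, per the submitters' processing notes; the sources used here name no caller, filter or genome build, so no gene or sequence was assigned to a region.

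Starts are printed counted from 1. No regions touched, so merging changed nothing. Chromosomes were the units of exact two-sided permutation tests over all 1024 sign patterns of the differences between clustered and other regions; p-values describe the spread between chromosomes of 1 pair of libraries, not between plants. They were adjusted (Benjamini-Hochberg) over 6 tests, 5 planned and 1 added; 4 planned tests of counts were computed but are not reported and not in this adjustment, which was planned over 9 tests. The tests of levels and of neighbour similarity were checked on simulated ratios at the real positions. The simulated effects were larger than the differences seen here. The check therefore does not show whether effects of the observed size would be detected. Binomial intervals are exact (Clopper-Pearson, 95%). Members, tests and the rule for named regions were chosen with earlier results of these data known. The rule took every cluster of 3, the 5 closest pairs, 2 pairs on each side of the limit, the 5 highest ratios, the 3 longest regions and clusters wholly at 0; its parts on counts are not reported. Alternatives changed the gap limit, the distal limit, the statistic, the comparison group and the regions or chromosomes kept. The software was Python 3.11.15 with numpy 2.4.6, scipy 1.17.1, pandas 2.3.3 and matplotlib 3.10.9.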

Additional observations from a re-analysis of the deposited data

How the results depend on the processing

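None of the 6 comparisons passed the threshold (adjusted p of 0.281 to 0.961), and of 93 alternatives 79 kept the direction and the side of the unadjusted threshold of 0.05. The direction reversed in 11, of which 7 were for the number of regions within 1 Mb, 3 for similarity of ratios and 1 for the ratio. With all chromosomes kept, similarity of ratios turned at a gap limit of 50 kb (2.22 rank points) and without the shortest and longest 10% of regions (0.205). The ratio itself turned in regions at or under the median length (-0.000676). The number of regions within 1 Mb turned at 50 kb (-0.00269) and without the shortest and longest 10% (-0.0287). The other reversals came on leaving out a chromosome. Leaving out each chromosome in turn gave differences from 46.2 to 84.2 bp in length, 0.0316 to 0.0630 in ratio, 2.48 to 8.25 percentage points in the distal share, 2.54 to 5.94 rank points in similarity of lengths, -2.99 to 0.184 in similarity of ratios and -0.0870 to 0.0903 regions within 1 Mb. The cause was not tested for any of these. Alternatives for counts, and 1 added to both counts in the ratio, are not reported, since neither count column could be tied to a library. For lack of a second MNase or input library, nothing shares a replicate across groups. No analysis paired by replicate was possible between the libraries, because each kind has 1 library. The permutation tests paired values within chromosomes, not within replicates.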
